A study of Homo sapiens with 3 samples.

Results

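Of 5692 Flag peaks on chromosomes 1 to 22, X and Y, 404 had their summit within 1 kb of the outer end of 2 or more protein-coding genes, as happens at promoters that serve a gene on either side. These paired-end peaks were chosen by the position of the summit alone, not by its height or q, from the peak list of the Flag antibody and the RefSeq gene positions of GRCh38.p14. They made up 7.10% of the chromosomal Flag peaks (exact 95% interval 6.44 to 7.80) and 19.9% of the 2027 Flag peaks at any gene end (18.2 to 21.7). A further 1623 Flag peaks lay at an end of 1 gene and 3665 at none. The peaks came from HCT116, an established human colorectal cancer cell line, made to overexpress VCP with a Flag tag. Fixed, micrococcal nuclease-digested chromatin was immunoprecipitated with an antibody to the Flag tag or with an antibody to VCP, and an input library was made alongside. All 3 libraries came from the same line, so no cells without the tag stand beside them, and the sources used here do not give the promoter of the tagged construct or say whether the line is 1 clone. Each antibody had 1 library without replicates. All intervals therefore cover counting error only, and no p-value is given. Coordinates are 1-based on hg38.

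VCP, also called p97, is a hexameric ATPase that unfolds ubiquitin-tagged proteins and pulls them out of membranes, complexes and chromatin. It works with cofactors such as UFD1 and NPL4, and on chromatin it is known to extract proteins during DNA repair and replication. In the human genome many genes stand head to head and are transcribed away from each other from a short stretch that both share. Such bidirectional promoters are typically rich in CpG, often lack a TATA box and are common among housekeeping genes, including genes of DNA repair.

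To show what lies between such starts, the stretches between the 2 gene starts of 8 divergent pairs are printed here, chosen as those with the highest Flag −log10 q among pairs 20 to 250 bp apart whose promoter sequence was at hand. They are read 5′ to 3′ on the plus strand from the RefSeq promoter table of GRCh38.p14, with the left-hand gene first. Capitals mark the letters GGGCGG or, on the other strand, CCGCCC (a core that SP and KLF factors bind) and ATGGCG (the core of YY1).
FAM200A/ZNF655, chr7:99558544-99558641: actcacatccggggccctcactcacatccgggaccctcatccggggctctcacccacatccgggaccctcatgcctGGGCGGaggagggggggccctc
ITPRIP/CFAP58, chr10:104338466-104338519: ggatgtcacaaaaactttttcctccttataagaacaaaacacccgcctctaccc
TRAPPC3/MAP7D1, chr1:36156054-36156159: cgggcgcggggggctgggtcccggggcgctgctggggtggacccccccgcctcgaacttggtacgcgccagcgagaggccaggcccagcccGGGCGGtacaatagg
GIN1/PPIP5K2, chr5:103120139-103120300: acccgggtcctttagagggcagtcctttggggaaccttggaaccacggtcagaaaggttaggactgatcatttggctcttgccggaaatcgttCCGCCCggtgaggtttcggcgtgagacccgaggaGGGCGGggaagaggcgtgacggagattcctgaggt
PROSER1/NHLRC3, chr13:39038090-39038310: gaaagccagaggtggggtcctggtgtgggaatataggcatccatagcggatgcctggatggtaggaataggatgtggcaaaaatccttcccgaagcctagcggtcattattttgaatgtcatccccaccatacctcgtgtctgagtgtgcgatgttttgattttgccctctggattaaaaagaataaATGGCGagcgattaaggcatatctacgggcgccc
RGS5/NUF2, chr1:163321736-163321953: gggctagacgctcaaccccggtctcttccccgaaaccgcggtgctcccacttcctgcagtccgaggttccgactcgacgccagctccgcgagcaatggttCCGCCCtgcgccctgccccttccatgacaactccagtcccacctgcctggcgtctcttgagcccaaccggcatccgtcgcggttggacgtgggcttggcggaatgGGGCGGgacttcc
AIDA/BROX, chr1:222712492-222712563: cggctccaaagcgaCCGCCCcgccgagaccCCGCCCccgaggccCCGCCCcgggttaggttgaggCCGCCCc
MITD1/MRPL30, chr2:99181059-99181183: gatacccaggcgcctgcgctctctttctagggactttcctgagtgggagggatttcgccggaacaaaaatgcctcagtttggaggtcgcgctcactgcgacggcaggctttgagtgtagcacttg
GGGCGG was present on either strand in 5 of the 8 stretches and ATGGCG in 1, and the letters of the other 7 motifs searched (given with the promoter results) were in none of the 8. The Flag summit lay inside the printed stretch at FAM200A/ZNF655, RGS5/NUF2 and MITD1/MRPL30, and inside one of the genes at the other 5. AIDA/BROX held 4 copies of CCGCCC within 72 bases and was 80.6% G or C, whereas ITPRIP/CFAP58 held no copy within 54 bases and was 42.6% G or C.

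Most of the paired ends were 2 gene starts facing away from each other. Strand was known for both genes at 319 of the 404 peaks, and 242 of these (75.9%, 70.8 to 80.5) lay at a divergent pair. The other arrangements were a start facing the 3′ end of its neighbour on the same strand (tandem, 48 peaks) and 2 starts on the same strand (20 peaks). A start and a 3′ end of genes on opposite strands, with the bodies extending to the same side of these ends, made up 5 peaks. Each arrangement is that of the ends nearest the summit, so whole genes can stand otherwise where a gene is short. Facing 3′ ends (convergent) made up 4 peaks. At the remaining 85 peaks the strand of at least 1 gene was not known. These included all 16 members on chromosome 8, so the divergent share leaves out that chromosome. Judged by the same ends, the gene bodies stood apart at 304 peaks, overlapped at 74 and extended to the same side of their ends at 26. The peaks fell on 393 distinct pairs and, counting the outer gene where 3 ends were in reach, on 800 genes. Of all 19866 protein-coding genes that is 4.03%, and of the 7194 genes that have another gene's end within 2 kb of an end of their own it is 11.1%.

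The 2 ends were usually close together. Their distance had a median of 267.5 bp (95% interval 230 to 292) with quartiles of 129 and 476.5 bp, and 227 peaks (56.2%) had ends at most 300 bp apart. Divergent pairs whose bodies stood apart had starts a median of 184.5 bp from each other (159 to 219), against 501 bp for tandem pairs. Short distances were not particular to pairs with a Flag peak. Among divergent pairs of the genome with facing starts at most 1 kb apart, the median was 193 bp with a Flag summit and 170 bp without. Only 14 peaks (3.47%) had ends more than 1000 bp apart, and the rule, which asks for both ends within 1 kb of the summit, sets an upper limit to that distance. The longest distance, 1359 bp, separated C19orf85 from ISOC2 on chromosome 19, where the peak at 55462356 to 55462597 had 9 reads at its summit. Next came WBP2 and UNC13D (1295 bp), with UNC13D a gene of cytotoxic granule release. NKIRAS1 and NR1D2 (1276 bp) followed, which overlap at their starts and encode an inhibitor of NF-kappaB signalling and a nuclear receptor of the circadian clock. At the other extreme 12 peaks had both ends at 1 position, among them JMJD7 with its readthrough gene JMJD7-PLA2G4B, ATF7 with ATF7-NPFF, and PIGBOS1 with RAB27A. Of all members, 9 had a readthrough gene in the pair and 15 a gene with a provisional LOC symbol, so 1 promoter can appear there as a pair.

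**Figure D1:**
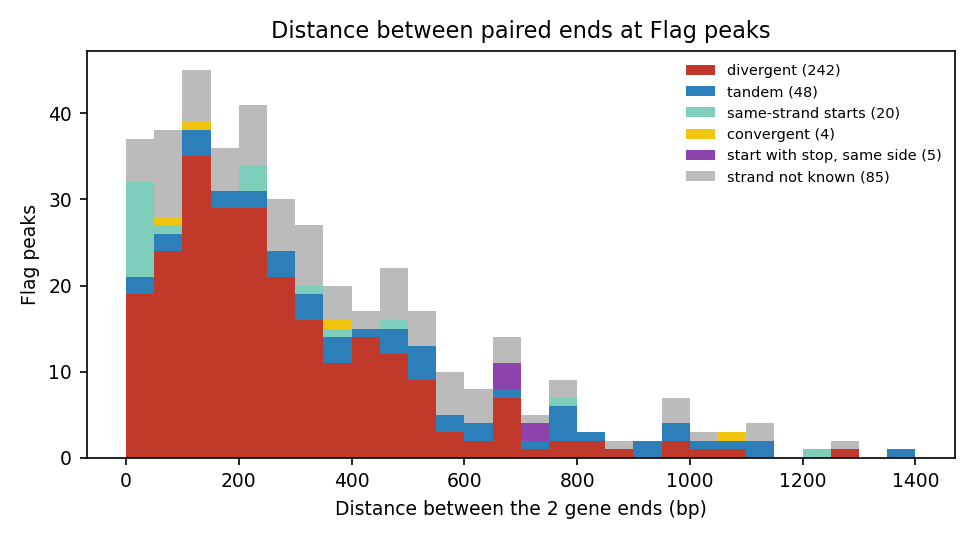
Distance between the 2 gene ends at the 404 paired-end Flag peaks (x axis, bp; y axis, number of peaks), by the orientation of the pair. Divergent pairs fill the short distances, and the median over all peaks is 267.5 bp.

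Summits sat close to the starts but mostly beside, not within, the stretch between them. The summit was a median of 112 bp from the nearer end and 320.5 bp from the farther one, against 193 bp from the single end in peaks at 1 gene. Both ends lay within 500 bp of the summit at 289 peaks (71.5%) and within 250 bp at 149 (36.9%). Being near 2 ends is what chose the peaks, so the smaller distance of the nearer end follows in part from the rule. The summit was between the 2 ends at 158 of 404 peaks (39.1%, 34.3 to 44.1).

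At the 192 peaks of divergent pairs whose gene bodies stood apart, the summit lay between the starts in 67 (34.9%, 28.2 to 42.1) and inside 1 of the 2 genes in 125, at a median depth of 112 bp from its start (quartiles 56 and 179). That stretch took up a median of 10.1% of the window in which a summit could be counted. The share between the starts depended on the room there. It was 4.88% (2 of 41) for starts at most 100 bp apart, where the stretch was a median of 2.88% of the window, and 31.7% (19 of 60) for starts 100 to 200 bp apart, where it was 7.76%. Beyond this it was 45.0% (18 of 40) at 200 to 300 bp, 44.7% (17 of 38) at 300 to 500 bp and 84.6% (11 of 13) above 500 bp. Measured from the midpoint between the starts, the summits were a median of 157 bp away (118.5 to 181). Of the 192, 31 lay under 50 bp from the midpoint, 60 at 50 to 150 bp, 65 at 150 to 300 bp and 36 at 300 bp or more. Where the starts were at most 100 bp apart the median was 153.5 bp (105 to 220), and 39 of these 41 summits lay inside 1 of the genes. At the 50 peaks of divergent pairs with overlapping ends, the summit lay in the overlap in 23 (46.0%).

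**Figure D2:**
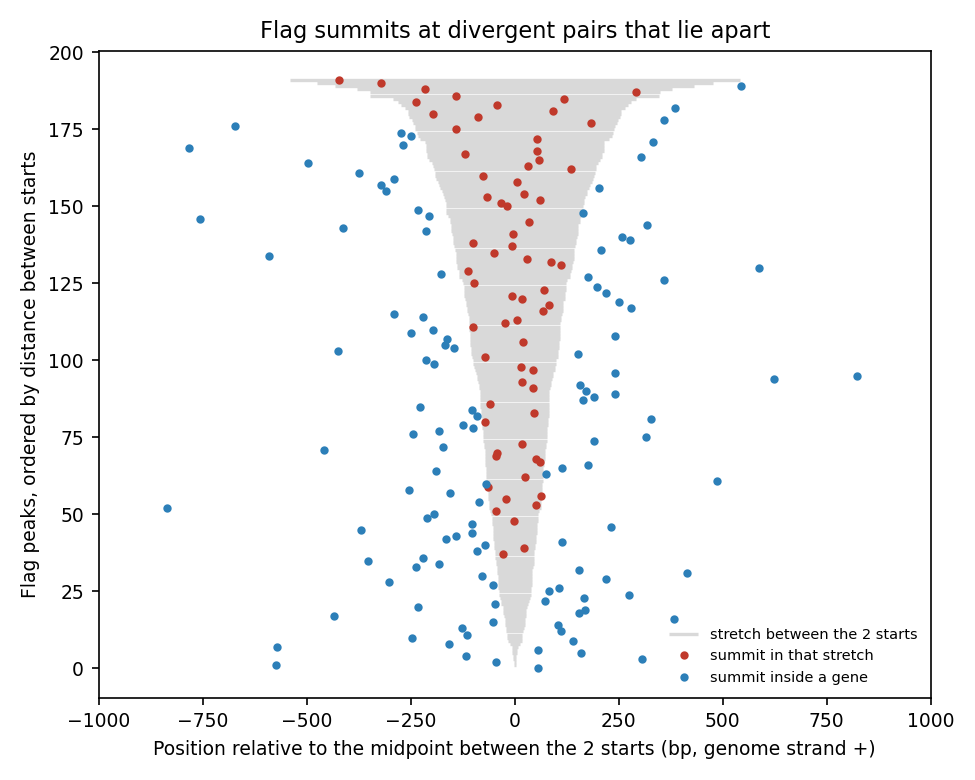
Position of the Flag summit relative to the midpoint between the starts, at 192 peaks of divergent pairs whose bodies stand apart (x axis, bp), 1 peak per row in order of the distance between starts, which grey lines show. At 67 peaks the summit falls between the starts and at 125 inside 1 of the genes.

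Paired-end peaks were of ordinary width and height for Flag peaks at genes. Width had a median of 256 bp (242 to 272), with quartiles of 206 and 395 bp and a range of 180 to 934 bp, against 249 bp (238 to 258) for peaks at 1 gene end and 227 bp for peaks at none. Peaks of 300 bp or more made up 40.3% of paired-end peaks and 38.1% of single-end peaks, a difference of 2.27 points (Newcombe 95% interval −2.98 to 7.65). Fold enrichment is the authors' ratio of summit reads to an estimated background. It had a median of 3.73 (3.59 to 3.86) at paired ends, 3.64 (3.55 to 3.67) at single ends and 3.37 (3.35 to 3.39) away from ends. The depth behind these values was low: a paired-end summit rested on a median of 12 reads (quartiles 10 and 15, range 7 to 35) over a background of 2.30 reads, and a single-end summit on 11. The authors' q was at most 0.05 in 193 paired-end peaks (47.8%, 42.8 to 52.8) and 721 single-end peaks (44.4%), a difference of 3.35 points (−2.05 to 8.78), against 33.8% of all chromosomal Flag peaks. The intervals of both differences include 0. Within the members, divergent pairs had a median fold enrichment of 3.86 (3.73 to 3.96) and 53.7% with a q of at most 0.05 (47.2 to 60.1). Single-end peaks at a start had 3.65 (3.55 to 3.70) and 44.2% (41.4 to 46.9). On both measures the intervals of these 2 classes did not overlap, with the divergent pairs higher. Tandem pairs had 3.51 and 33.3%. At the edge of the rule, the 12 peaks whose second end was 950 to 1000 bp away had a median fold enrichment of 4.35 (range 2.59 to 6.38), and the 6 peaks at 1000 to 1050 bp, just outside, had 3.95 (3.48 to 5.27).

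**Figure D3:**
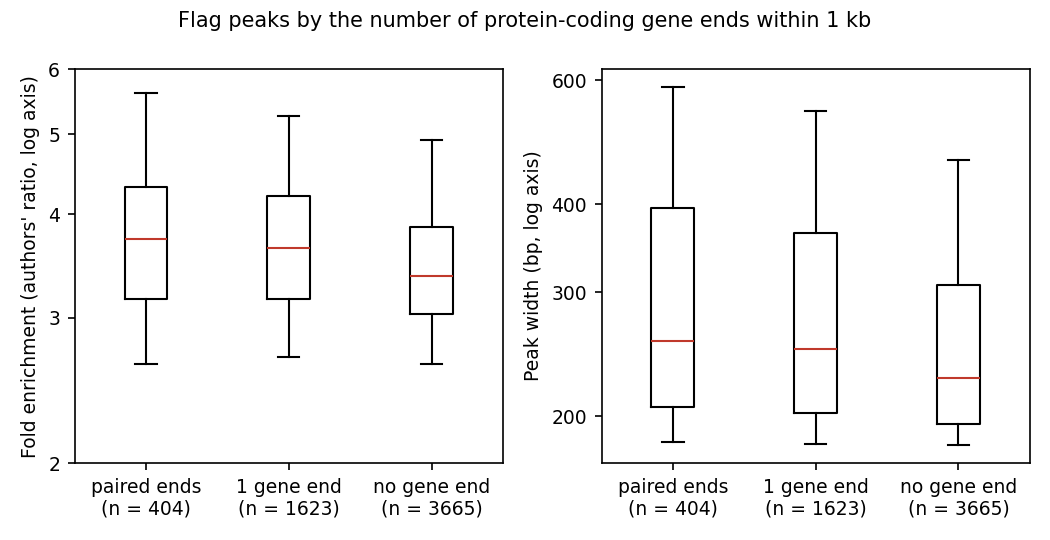
Fold enrichment (left, the authors' ratio, log axis) and width (right, bp, log axis) of Flag peaks at paired ends, at 1 gene end and at none. Boxes span the quartiles with the median as a line, and whiskers run over percentiles 5 to 95. Medians of fold enrichment are 3.73, 3.64 and 3.37, and those of width 256, 249 and 227 bp.

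Counted over gene ends, a Flag summit within 1 kb was more frequent at ends with a neighbour. Of 6606 ends with another protein-coding gene's end within 1 kb, 823 had a summit (12.5%, 11.7 to 13.3), against 1571 of 33126 unpaired ends (4.74%) and 6.03% of all ends, a difference of 7.72 points (6.91 to 8.56). A neighbour widens the reach, because 1 summit can count for both ends. When each summit counted for its nearest end only, a setting added after the data were seen, the shares were 6.51% and 4.67% and the difference 1.84 points (1.22 to 2.50). Starts with a divergent start nearby had a summit in 23.1% (499 of 2162), starts near another kind of end in 13.5% (131 of 971) and unpaired starts in 9.68% (1230 of 12709). With the nearest end only these became 11.9%, 9.99% and 9.62%, and divergent starts then exceeded unpaired ones by 2.26 points (0.865 to 3.78). At 3′ ends a summit was rare: 3.37% of paired and 0.489% of unpaired ones had one within 1 kb, and 0.982% and 0.407% had one for which they were the nearest end.

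Counted over facing pairs of the genome, the same summits gave the same order, which is not an independent result. Among pairs with facing ends at most 1 kb apart, a Flag summit lay within 1 kb of both ends at 198 of 814 divergent pairs (24.3%, 21.4 to 27.4), 45 of 420 tandem pairs (10.7%, 7.92 to 14.1) and 2 of 368 convergent pairs (0.543%, 0.0659 to 1.95). The intervals of the 3 arrangements did not overlap. Over all 2201 facing pairs the share was 14.1% (310 pairs), and over the 599 of them with a strand not known it was 10.9% (65 pairs). Among divergent pairs the share was 20.7% for starts at most 100 bp apart, 23.3% at 100 to 200 bp, 25.4% at 200 to 300 bp, 32.8% at 300 to 500 bp and 21.3% at 500 to 1000 bp. A long noncoding RNA gene had an end within 1 kb of 29 paired-end summits (7.18%, 4.86 to 10.1) and of 422 single-end summits (26.0%, 23.9 to 28.2).

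**Figure D4:**
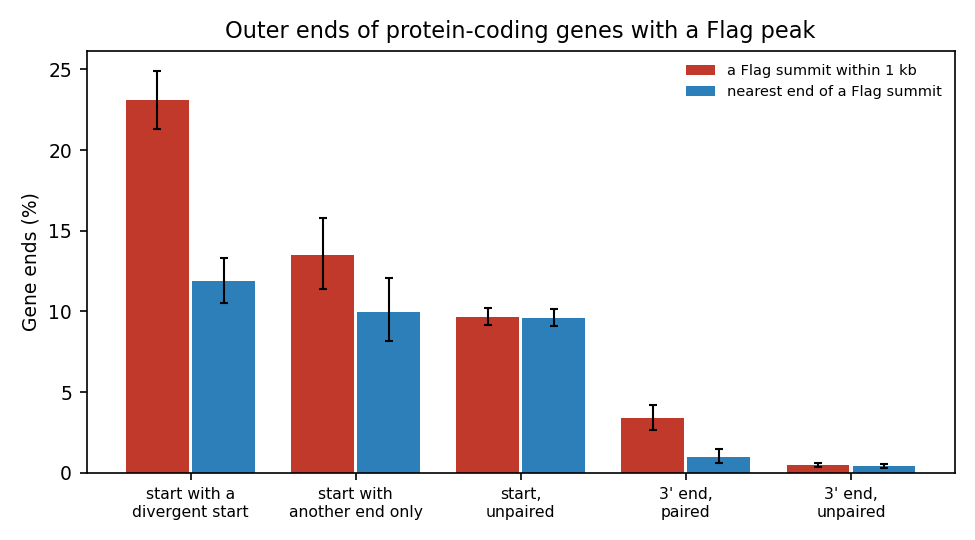
Percent of gene ends with a Flag summit within 1 kb, and with a Flag summit for which the end is the nearest, by the kind of end, with exact 95% intervals. Starts with a divergent start nearby stand at 23.1% by the first measure and 11.9% by the second.

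The pairs with the highest −log10 q came from varied functions. The highest was at LOC124902474 and the 3′ end of ADIRF, an adipogenesis-related gene, on chromosome 10 at 86970985 to 86971573, where 35 reads (95% Poisson interval 24.4 to 48.7) gave a fold enrichment of 10.9. Its summit was 27 bp from the start of the LOC gene and 517 bp from the end of ADIRF. The second, FAM200A/ZNF655, whose stretch is printed above, had 33 reads (22.7 to 46.3) and a fold enrichment of 10.4 at 99558304 to 99558806 on chromosome 7. Its summit was 28 bp from the start of ZNF655, which encodes a zinc finger protein, and 71 bp from that of FAM200A. These were the only members above a fold enrichment of 10, and the third in height, PAFAH1B3/PRR19, had 7.28. PAFAH1B3 encodes a catalytic subunit of platelet-activating factor acetylhydrolase, and its start overlaps PRR19 by 668 bp with the summit in the overlap.

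The other pairs among the 12 were lower in fold enrichment. CFAP58/ITPRIP, a gene of the sperm flagellum and one for a protein that interacts with the inositol trisphosphate receptor, had 34 reads but a fold enrichment of only 5.99, over a background of 4.84 reads. CMC2/CENPN, with CENPN a centromere protein, had 27 reads and a fold enrichment of 6.18 with the summit between starts 329 bp apart. USP15/TAFA2, with USP15 a deubiquitinase, also had 27 reads (fold enrichment 6.05) with the summit near the midpoint, 180 and 190 bp from the starts. At CEP95/DDX5 (27 reads, 5.97) the summit was 2 bp from the start of CEP95, a centrosomal protein gene, and 106 bp from that of DDX5, an RNA helicase involved in splicing. UTP18/MBTD1 (30 reads, 4.96) pairs a factor of ribosomal RNA processing with a reader of methylated histones. C14orf119/ACIN1 (23 reads, 5.83) and NKIRAS1/NR1D2 (26 reads, 5.31) completed the 12 together with the histone pair H2BC5/H1-4 and with EIF2B4/SNX17, described with their groups.

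Several groups of genes were counted beside the 11.1% of all genes able to pair. Replication-dependent histone genes, which lie in clusters and are expressed in S phase, had 16 of 53 at a paired-end peak (30.2%, 18.3 to 44.3), in 8 peaks. At 7 of the 8 peaks the pair was 2 histone genes. H2BC5/H1-4 on chromosome 6 was the highest, with 21 reads and a fold enrichment of 6.73 at 26157383 to 26157904, and its ends were 1006 bp apart. H2AC6/H2BC4 (17 reads, 4.55) and H2AC11/H2BC11 (17 reads, 4.46) were divergent pairs of an H2A and an H2B gene with starts 246 and 248 bp apart. Where a histone gene is under 1 kb long, either of its ends can be the nearest to a summit. Reads of near-identical histone gene copies may be placed on more than 1 of them.

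DNA replication genes had 8 of 30 (26.7%, 12.3 to 45.9) and DNA repair genes 15 of 68 (22.1%, 12.9 to 33.8). CDC45, part of the replicative helicase, shares its peak with UFD1, a cofactor of VCP itself: 20 reads and a fold enrichment of 4.54 on chromosome 22 at 19479201 to 19479684, with the 2 ends 273 bp apart. POLE, the leading-strand polymerase, stands divergent to PXMP2 (15 reads, 4.41), and MCM7, another helicase subunit, to AP4M1 (17 reads, 3.89). Among repair genes, DCLRE1C, the Artemis nuclease of end joining, pairs with MEIG1 (16 reads, 5.16), and BRCA2, a mediator of homologous recombination, with ZAR1L (13 reads, 4.92). ERCC1, a nucleotide excision repair nuclease subunit, was the outer gene at POLR1G/PPP1R13L.

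Genes of RNA and protein making were spread over many pairs. Splicing factors had 12 of 51 (23.5%, 12.8 to 37.5), among them SF3B6 beside FAM228B (13 reads, 4.35) and HNRNPA2B1 beside CBX3 (12 reads, 3.98), after DDX5. Cytoplasmic ribosomal proteins had 8 of 40 (20%, 9.05 to 35.6), led by RPL7A/MED22 (14 reads, 4.84), RPL18/SPHK2 (16 reads, 4.30) and RPS27A/CLHC1 (13 reads, 4.28). Translation initiation factors had 4 of 27 (14.8%, 4.19 to 33.7), 2 of them high: EIF2B4/SNX17 with 20 reads and a fold enrichment of 6.70, and EIF3B/SNX8 with 17 reads and 6.32. Both place a translation initiation gene beside a sorting nexin gene. RNA polymerase, general factor and Mediator genes had 7 of 58 (12.1%, 4.99 to 23.3), including the RNA polymerase I subunits POLR1A (beside PTCD3, 16 reads, 5.97) and POLR1G. Mitochondrial ribosomal proteins had 5 of 52 (9.62%, 3.20 to 21.0), with MITD1/MRPL30 (15 reads, 5.62) the highest and MRPL46/MRPS11 a pair of 2 such genes. Aminoacyl-tRNA synthetases had 3 of 19 (15.8%, 3.38 to 39.6), among them WARS1 beside WDR25 (10 reads, 3.86) and HARS2 beside ZMAT2 (9 reads, 3.51).

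Protein folding and turnover, the field in which VCP acts, gave mixed counts. Chaperonins and heat shock genes had 11 of 53 (20.8%, 10.8 to 34.1). HSPD1/HSPE1, which encode the large and small subunits of the mitochondrial chaperonin from starts 105 bp apart, had 18 reads and a fold enrichment of 4.91 on chromosome 2 at 197499874 to 197500088. The summit there was 317 bp inside HSPD1. Ubiquitin conjugases, ligases and deubiquitinases had 19 of 155 (12.3%, 7.54 to 18.5), among them the cullin CUL2 beside CREM (15 reads, 5.54) and FBXO36 beside TRIP12 (15 reads, 5.54). VCP cofactors had 3 of 19 (15.8%, 3.38 to 39.6): UFD1, UBXN2A beside ATAD2B (15 reads, 2.67) and FAF1 beside CDKN2C (10 reads, 2.96). Proteasome subunits had 1 of 23 (4.35%, 0.110 to 21.9), PSMC2 beside PMPCB (9 reads, 3.06).

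Among the remaining lists, centrosome, centromere and cilium genes had 13 of 76 (17.1%, 9.43 to 27.5), among them 6 centromere protein genes of the CENP series, and oxidative phosphorylation genes 7 of 48 (14.6%, 6.07 to 27.8), with NDUFA11, a complex I subunit, beside VMAC (16 reads, 5.89) the highest among the oxidative phosphorylation genes. Zinc finger genes had 13 of 141 (9.22%, 5.00 to 15.3) and mitochondrial import and carrier genes 4 of 44 (9.09%, 2.53 to 21.7). No olfactory receptor was paired among 33 (upper bound 10.6%) and no keratin gene among 2. The intervals of histones, replication, splicing and repair genes lay above 11.1%. Those of the other 15 lists included it or, for olfactory receptors, ended below it. All these intervals treat genes as independent, although a peak counts for every gene at its ends. The histone interval, for 16 genes in 8 peaks, is therefore too narrow. No correction was made for comparing 19 lists with 11.1%. Genes of different lists can share a peak, as HNRNPK and RMI1, and CDC45 and UFD1, show, so the counts of the lists are not independent.

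**Figure D5:**
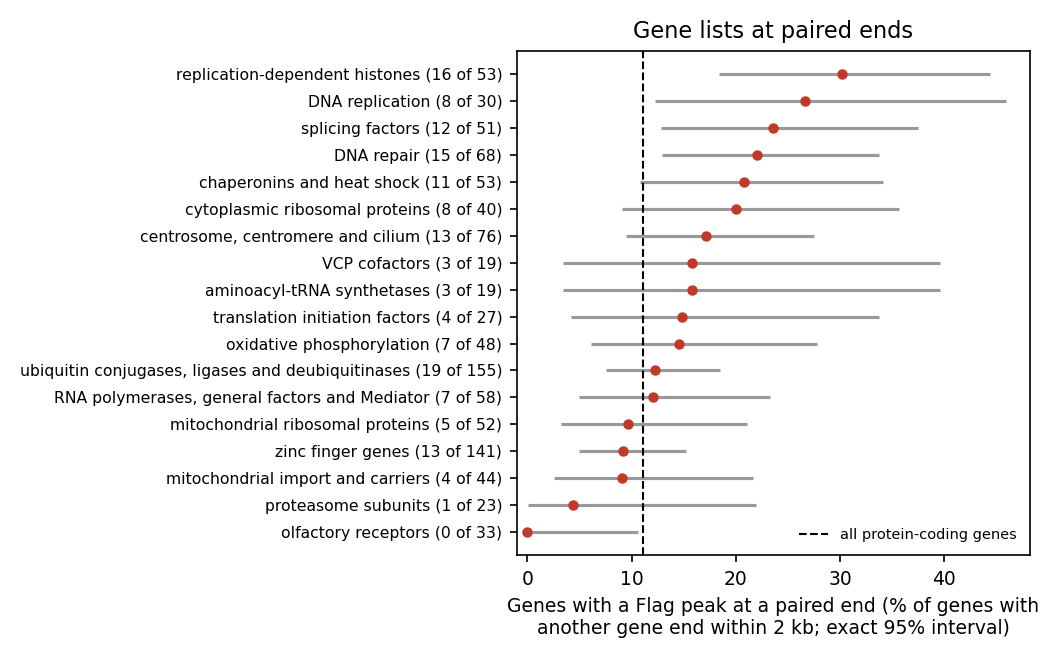
Percent of each gene list's members able to pair that lie at a paired-end Flag peak, with exact 95% intervals, beside the 11.1% of all genes able to pair (dashed line), for lists with at least 10 such members. Histones stand highest at 30.2%, and the intervals of most lists include the line.

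Some pairs carried more than 1 peak or more than 2 genes. Of the members, 381 lay at 2 genes and 23 at 3, and 11 pairs had 2 peaks each. At POLR1G/PPP1R13L on chromosome 19 a peak between the starts (45406419 to 45406838, 22 reads, fold enrichment 4.82) also had an end of ERCC1 in reach, and a second peak inside PPP1R13L (45405846 to 45406050, 17 reads) had 3.0. At ZBTB26/RABGAP1 the peak between the starts had 15 reads and 5.62 and the second 8 reads and 2.75, and at BZW2/ANKMY2 they had 18 reads and 4.71, and 12 reads and 3.49. These 3 pairs, named for their high −log10 q, do not stand for all 11. In 7 of the 11, 1 summit lay between the ends and 1 outside: the peak between had the higher fold enrichment in 3, the peak outside in 3, and both were equal in 1. CCDC148/PKP4, with LOC124907900 as a further gene, had 13 reads and 4.92.

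Few paired-end Flag peaks overlapped a peak of the VCP antibody, and the difference from single ends was within counting error. The VCP list is the shorter one, with 1803 chromosomal peaks against 5692, which limits the share of Flag peaks that can overlap it. A VCP peak overlapped by at least 1 bp at 25 of 404 paired-end Flag peaks (6.19%, 4.04 to 9.0) and at 102 of 1623 single-end Flag peaks (6.28%, 5.15 to 7.58), a difference of −0.0965 points (−2.44 to 2.89), against 3.44% of all chromosomal Flag peaks. Divergent pairs had 12 of 242 (4.96%, 2.59 to 8.50) and tandem pairs 6 of 48 (12.5%, 4.73 to 25.2), with overlapping intervals. Of the gene-end peaks in each list, paired ends held 19.9% in the Flag list and 70 of 395 (17.7%, 14.1 to 21.9) in the VCP list. At the 25 shared sites the Flag peaks had a median fold enrichment of 4.57, with a range of 2.96 to 6.70, and the VCP peaks 3.65, with a range of 2.80 to 4.74. The VCP peaks there rested on 8 to 16 reads, and 3 of 25 reached a q of at most 0.05. The summits of the 2 lists were a median of 51 bp apart (range 0 to 264).

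EIF2B4/SNX17 on chromosome 2 had the lowest sum of ranks. Its Flag peak at 27370292 to 27370543 had 20 reads (12.2 to 30.9) and a fold enrichment of 6.70, its VCP peak 14 reads and 4.73, and the summits were 50 bp apart. EIF2B4 encodes a subunit of the exchange factor for eIF2, and the Flag summit was 133 and 145 bp from the 2 gene ends. GABARAP/CTDNEP1 came next, a tandem pair of an autophagy gene and a nuclear envelope phosphatase (23 Flag reads and 16 VCP reads). At PDE12/DNAH12 on chromosome 3 both summits were at position 57556171, with 14 Flag reads and 12 VCP reads. The other 5 pairs were SCRIB/PUF60, RPL7A/MED22, EBAG9UORF/EBAG9, CTDSP1/SLC11A1 and SLC25A53/FAM199X, with Flag fold enrichments of 4.12 to 5.24.

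For each of the 9 motifs searched, the interval of the divergent members overlapped that of divergent starts without a Flag summit. A RefSeq promoter sequence, 250 bp before to 50 bp after the start, was at hand for 404 starts of divergent members (a number that equals that of the peaks by coincidence), 1473 starts with a divergent neighbour and no Flag summit, 1118 single starts with a Flag peak and 9969 without, and 13819 starts in all. Each motif was sought on both strands. Starts of divergent members whose bodies stood apart were a median of 184.5 bp from each other, so their promoters can share bases. The same copy of a motif can then count for both starts. The intervals treat starts as independent, so those of the divergent classes are too narrow. The ETS core CCGGAAG was present in 30.2% of member promoters (25.8 to 34.9) and 27.0% of divergent promoters without a Flag summit (24.7 to 29.3), against 22.3% of single starts with a Flag peak and 10.8% of those without. YY1's ATGGCG had shares of 26.0%, 24.6%, 19.3% and 12.3% in the same order. The TATA box letters TATAAA were present in 3.22%, 3.94%, 6.71% and 11.8%.

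The other 6 motifs are given in the same order of classes. GGGCGG was present in 67.3% of member promoters (62.5 to 71.9), 72.8%, 72.4% and 54.2%, so that single starts without a Flag peak had the lowest share. CCAAT, the NF-Y box, had shares of 40.8%, 39.4%, 35.7% and 37.0%. The NRF1 core CATGCGC had 7.18%, 9.50%, 7.60% and 5.18%, the CRE core TGACGT 13.1%, 13.6%, 13.1% and 8.82%, and the E-box CACGTG 12.9%, 10.0%, 11.2% and 8.11%. TCGCGAG, resembling the site of ZBTB33, had 7.18% (4.86 to 10.1), 4.89% (3.84 to 6.12), 5.01% and 2.65%. Over all promoters the shares were 58.5% for GGGCGG, 37.2% for CCAAT, 14.9% for ATGGCG, 14.6% for CCGGAAG, 10.0% for TATAAA, 9.94% for TGACGT, 8.95% for CACGTG, 6.10% for CATGCGC and 3.29% for TCGCGAG. GC content had a median of 63.7% in member promoters and 65.3% in divergent promoters without a Flag summit, and observed over expected CpG was 0.860 and 0.868. Single starts had medians of 66.0% GC and 0.877 with a Flag peak and 61.3% and 0.710 without.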

How the data were processed

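The Flag and VCP peak lists are narrowPeak files of 5719 and 1816 peaks, 1 library each. MACS2 2.1.0, Bowtie 1.1.2, Trimmomatic 0.33, bcl2fastq 2.17 and the build hg38 are named in the submitters' processing notes. The sources used here do not say with which settings they were run or whether the input served as control. The deposited score, fold enrichment (a ratio of summit reads over an estimated background), −log10 p-value and −log10 q-value are the authors' values. The lowest deposited −log10 p is 3.00, so peaks passed an unadjusted threshold. Reads at each summit were recovered from fold enrichment and −log10 p with a pseudocount of 1 and were whole numbers, to a tolerance of 0.001 in −log10 p, for each of the 5719 Flag peaks.

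Protein-coding genes (19866) came from the RefSeq table of GRCh38.p14, and strand, known for 15842 of them, from its promoter table. Strand was not known for any gene on chromosome 8, so counts by orientation or promoter class leave out that chromosome. A pair is the 2 genes with ends nearest the summit. Shares have exact (Clopper-Pearson) 95% intervals, medians order-statistic intervals and differences of shares Newcombe intervals. PCR reads are not independent molecules, so these intervals are limited to counting error. Work used Python 3.11.15, numpy 2.4.6, pandas 2.3.3, scipy 1.17.1 and matplotlib 3.10.9, and the code was tested on simulated data. The members, the 19 gene lists, defined mostly by symbol patterns, and the alternatives were chosen with earlier results of these data known.

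Named pairs are the 12 with the highest −log10 q, the 8 with the lowest rank sum among those overlapping a VCP peak, up to 3 per gene list, the 3 shortest and 3 longest distances, 4 with 3 genes and 3 with 2 peaks. Not every pair this rule picks is named, and some items are not reported here.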

Additional observations from a re-analysis of the deposited data

How the results depend on the processing

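Of 76 recomputed values, 26 moved beyond their interval or, for counts, by over 1.5 times, and 50 did not. The difference in VCP overlap between paired and single ends, −0.0965 points, ran over −1.86 to 0.581 points and was above 0 in 5 of its 10 alternatives, with every interval including 0. With Flag q of at most 0.05, 193 peaks were members and the median fold enrichment was 4.38. Divergent pairs then made up 83.9% of the distinct pairs with known strands (75.7% without a q limit). A VCP peak overlapped 9.33% of these members, and paired ends exceeded unpaired ones by 4.0 points. With −log10 q of at least 5 these values were 30 peaks, 5.89, 88.9%, 10.0% and 0.549 points, the median distance was 359.5 bp, the median width 408.5 bp, 27.8% of gene-end peaks were paired and 50% of summits lay between the ends. A 500 bp window gave a median distance of 199 bp, 81.6% divergent among distinct pairs with known strands and 16.9% of gene-end peaks. A 2 kb window gave 343 bp, 67.3% and 24.1%. The median distance and the paired share follow the window by construction. With gene starts only, there were 268 members, 217.5 bp, 16.2% of gene-end peaks and a difference between ends of 12.4 points. With each summit counted for its nearest end only, chosen after seeing the data, that difference was 1.84 points. With VCP peaks of q at most 0.05, 0.743% of members overlapped one. By construction, a limit on Flag q keeps fewer peaks, favours those of higher fold enrichment and leaves fewer ends with a summit. A limit on VCP q can only lower the overlap. Except where its construction is named, the cause of a shift was not tested. Leaving out chromosomes 8, 10 and 17 or LOC and readthrough genes, and other overlap rules, moved none of their values beyond its interval. With 1 library per antibody, no replicate could be left out. No paired analysis was possible because the groups have 1 library each. Depth limits single peaks: the 95% Poisson interval of 12 reads, the median, runs over 6.20 to 21.0.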

Other observations

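In the stretch between FAM200A and ZNF655 the letters ATCCGGG occur 4 times, a unit picked after the sequence was seen. Over 13819 promoters of the same table, 480 (3.47%) held it at least once and 1 held 4 or more copies. Reads in repeated sequence can be placed at more than 1 position, and its part in the fold enrichment of 10.4 there was not tested.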
